A study of Mus musculus with 9 samples.

Results

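The cytosolic ribosomal protein genes, which encode the protein components of the 40S and 60S ribosomal subunits, were examined in RNA of mouse lung cells. Genes were taken from the deposited table when they were annotated as protein-coding and carried an Rpl or Rps name with a number (with an optional a, x, l or similar suffix), or were named Rplp0, Rplp1, Rplp2 or Rpsa. The rule found 83 of the 55851 genes in the table, 32 of the 40S subunit and 51 of the 60S subunit. They lie on 19 chromosomes, with 14 genes on chromosome 7. Levels are in FPKM, reads scaled by the authors for gene length and library size, and 82 of the 83 genes had the mean of at least 0.2 FPKM over the 9 libraries that testing required. Rpl10l, a retrotransposed copy of Rpl10 known from testis, had 0 reads in all 9 libraries, where 3 reads would correspond to 0.0852 to 0.153 FPKM.

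Libraries were made from total lung cells of female C57BL/6J mice, with a time label of 7 weeks, in 3 groups of 3. DJ-1 KO OVA mice lacked DJ-1 and were challenged with ovalbumin, an allergen used to model asthma (libraries DJ1_KO_OVA_263, DJ1_KO_OVA_266 and DJ1_KO_OVA_267). WT OVA mice were wild type and received the same challenge (replicates 5, 6 and 9), and WT PBS mice were wild type and were challenged with phosphate-buffered saline (replicates 1, 2 and 3). No knockout group challenged with saline was analysed here, so knockout was compared with wild type only under ovalbumin, and the labels do not say where in Park7, the gene of DJ-1, the allele lies or whether each library is 1 animal. The p-values therefore measure the spread between libraries, which may be technical.

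As background, each ribosome holds a single copy of most ribosomal proteins, and the genes for them are among the most highly expressed in any cell. Their mRNAs begin with a run of pyrimidines at the cap, the terminal oligopyrimidine tract, through which the kinase mTORC1 and the RNA-binding protein Larp1 control their translation and stability. Proteins made in excess of the rest of a subunit are degraded, and free Rpl5 and Rpl11, bound to 5S ribosomal RNA, inhibit Mdm2 and stabilise p53.

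The starts of the genes are shown because the tract at the cap is the sequence that ribosomal protein mRNAs are known for. RefSeq windows on GRCm38.p6, from 250 bases before to 50 bases after the annotated start, were found for 63 of the 83 genes, and the first listed window was used for the 10 genes with several. An uninterrupted run of at least 6 C or T bases on the gene's strand, lying at least partly within 5 bases of the start, was found in 30 of the 63 windows (47.6%), against 21% of the 27025 windows of all genes. Runs of at least 8 were found in 33.3% of the windows, against 9.63% of all windows, and A or G runs of at least 6 in 7.94%, against 22.5%. The sequences below run 5′ to 3′ on the gene's strand over 30 bases, of which the last 10 begin with the annotated start. Capitals mark the longest C or T run near the start, where one of at least 2 bases was found, and a run that reaches the edge goes on beyond it in some genes.
Rps27, chr3:90213639-90213668, minus strand: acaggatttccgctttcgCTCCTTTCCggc
Rps6, chr4:86857358-86857387, minus strand: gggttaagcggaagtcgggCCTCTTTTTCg
Rpl38, chr11:114668560-114668589, plus strand: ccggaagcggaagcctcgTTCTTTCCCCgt
Rpl35, chr2:39005122-39005151, minus strand: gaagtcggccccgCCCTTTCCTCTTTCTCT
Rpl15, chr14:18270977-18271006, minus strand: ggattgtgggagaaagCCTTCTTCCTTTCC
Rps24, chr14:24490658-24490687, plus strand: acgcccccgcgctggggTCCTTCCTTgcgc
Rpl22l1, chr3:28805488-28805517, plus strand: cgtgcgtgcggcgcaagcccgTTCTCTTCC
Rps10, chr17:27635235-27635264, minus strand: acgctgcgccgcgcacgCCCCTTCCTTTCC
Rps19, chr7:24884572-24884601, plus strand: agcactccgaaaTCTCgcgagactcgacgc
Rpl35a, chr16:33056433-33056462, plus strand: gaggggcggggcgtgcgTCCCacaaggccg
Rpl3l, chr17:24727806-24727835, plus strand: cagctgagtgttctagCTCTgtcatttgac
Rpl7l1, chr17:46782647-46782676, minus strand: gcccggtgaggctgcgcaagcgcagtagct
The first 8 are genes with a run of at least 6, and the last 4 are genes with a shorter run or none. Annotated starts can lie some bases away from the base where transcription begins, so a short run in the window describes the annotation and not the mRNA. In the 300-base windows the ETS core CCGGAAG was found on either strand in 39.7%, against 9.12% of all windows. CTTTCC, which a C or T run can contain, was found in 47.6% against 26.3%, TATAAA in 9.52% against 14.2%, and the E-box CACGTG in 7.94% against 7.24%.

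The genotype labels were checked on Park7, which had 3.96, 7.29 and 3.97 FPKM in libraries DJ1_KO_OVA_263, DJ1_KO_OVA_266 and DJ1_KO_OVA_267, against 57.9, 53.1 and 60.5 in WT OVA replicates 5, 6 and 9 and 49.6, 53.8 and 36.7 in WT PBS replicates 1, 2 and 3. The lung label was checked on the marker genes of lung and blood cell types, and the surfactant and other alveolar type 2 markers were abundant in all 9 libraries, with a summed level of 6626 FPKM or more. Depth was 20812192 to 29080130 reads a library, recovered from the FPKM values.

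Ribosomal protein genes were abundant. Their median level was 522 FPKM over the 9 libraries, against 3.20 FPKM for all 17716 genes tested; 74 of the 83 were at 100 FPKM or more, and 32 of the 100 genes with the highest mean were ribosomal protein genes. The highest was Rplp1, an acidic protein of the lateral stalk that recruits elongation factors, at 4276 FPKM, followed by Rps15 and Rpl36. The lowest tested members were Rps10, at 1.11 FPKM, Rpl39l, a copy of Rpl39 known from testis, and Rpl3l, a copy of Rpl3 known from heart and skeletal muscle. Rps10 held 0.524% of the reads counted to it and its 4 named copies, and the pseudogene Rps10-ps2 was at 963 FPKM.

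The summed level of the 83 genes differed between libraries. It was 22720, 48382 and 24801 FPKM in libraries DJ1_KO_OVA_263, DJ1_KO_OVA_266 and DJ1_KO_OVA_267. In WT OVA replicates 5, 6 and 9 it was 71213, 60857 and 86762 FPKM, and in WT PBS replicates 1, 2 and 3 it was 47532, 70417 and 36246 FPKM. The knockout libraries lay below all 3 WT OVA libraries without overlap, DJ1_KO_OVA_266 lay between WT PBS replicates 1 and 2, and DJ1_KO_OVA_263 and DJ1_KO_OVA_267 lay below all 6 wild-type libraries. The genes took 4.56%, 7.57% and 4.15% of all reads in the knockout libraries, 10.4%, 9.49% and 12.3% in WT OVA and 7.68%, 10.8% and 6.19% in WT PBS. In bulk RNA, fewer cells of a type that is rich in these mRNAs and less of the mRNA per cell cannot be told apart.

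The 40S sum was 0.689, 0.703 and 0.676 of the 60S sum in libraries DJ1_KO_OVA_263, DJ1_KO_OVA_266 and DJ1_KO_OVA_267, 0.721, 0.737 and 0.756 in WT OVA replicates 5, 6 and 9, and 0.723, 0.754 and 0.738 in WT PBS replicates 1, 2 and 3. The 3 knockout ratios lay below the 6 wild-type ratios, but this depended on how reads of Rps27 and its copy Rps27rt, described further on, were divided. Without Rps27 the ratio was 0.668 to 0.679 in DJ-1 KO OVA, against 0.680 to 0.708 in WT OVA and 0.684 to 0.713 in WT PBS. With Rps27rt added to the 40S sum it was 0.739 to 0.779 in DJ-1 KO OVA, against 0.767 to 0.815 in WT OVA and 0.778 to 0.828 in WT PBS, and the groups overlapped. They also overlapped when every named copy was added, and these alternatives were chosen after seeing the data.

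**Figure D1:**
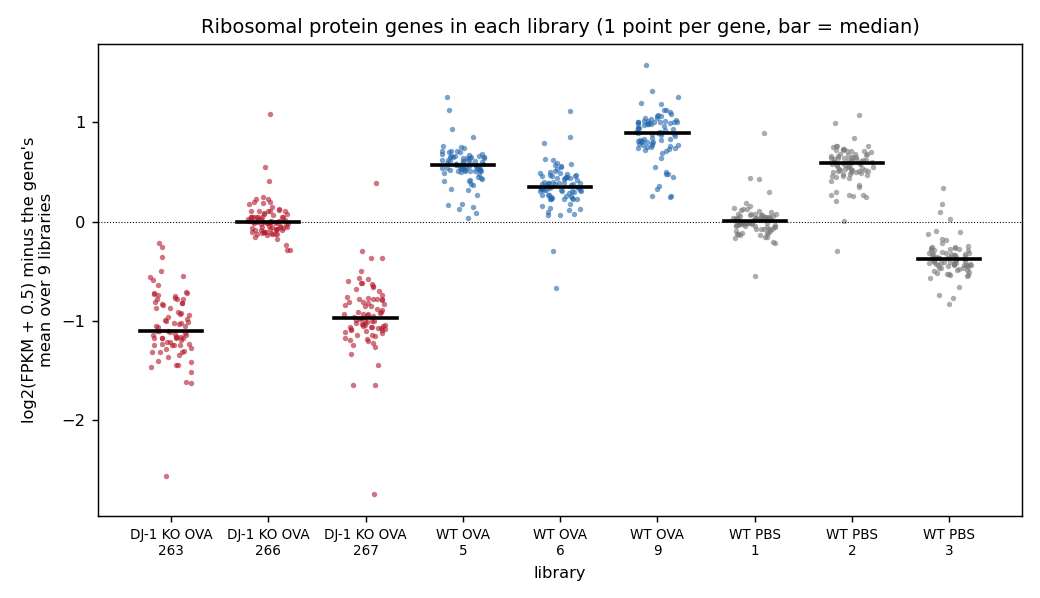
Each point is a ribosomal protein gene in 1 library, drawn as its log2(FPKM + 0.5) minus that gene's mean over the 9 libraries, with the median of the 82 genes as a bar. The medians were -1.10, -0.00 and -0.96 in libraries DJ1_KO_OVA_263, DJ1_KO_OVA_266 and DJ1_KO_OVA_267, all below the 0.35 to 0.89 of WT OVA, and -0.38 to 0.58 in WT PBS.

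Nearly all of the genes ordered the 9 libraries alike. Across the libraries, each gene's log2 level had a median Pearson r of 0.993 with the mean of the other members, and 77 of 82 genes exceeded 0.9, which describes 9 libraries that share their scaling and is no test. DJ1_KO_OVA_263 and DJ1_KO_OVA_267 were below all 6 wild-type libraries in 77 genes, and DJ1_KO_OVA_266 was the highest of the 3 knockout libraries in 81. WT OVA replicate 9 was the highest of all 9 libraries in 75 genes, WT PBS replicate 2 was the highest saline library in 79 and WT PBS replicate 3 the lowest in 78. The median SD of a member within a group was 0.60 (log2) in DJ-1 KO OVA, 0.28 in WT OVA and 0.50 in WT PBS, against 0.33, 0.21 and 0.25 for all genes tested. The genes that followed the common order least were Rpl39l (r = 0.14), Rps10 (0.58), Rps27a (0.83), Rpl7l1 (0.88) and Rps27l (0.88).

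In the comparison of DJ-1 KO OVA with WT OVA, which addresses the absence of DJ-1 under allergen challenge, ribosomal protein genes were lower as a group in the knockout. Of the 82 genes, 46 fell and 0 rose at an adjusted p below 0.05 (limma, Benjamini-Hochberg over 17716 genes), where 8.24% of all genes tested fell and 5.93% rose. The median difference of the members was -1.29 (log2), against 0.00 for all genes, and 81 of 82 differences were negative, against 50% of all genes. The 46 genes that fell were 2.25- to 7.46-fold lower in the knockout. The 7.46 belongs to Rps27, whose reads were divided with a copy, as described further on. With the reads of named copies added to each member, the most negative difference was -1.95 (log2), in an alternative chosen after seeing the data. The 3 knockout libraries lay below the 3 WT OVA libraries without overlap in 72 genes, against 18.8% of all genes. Differences of at least 2-fold downward were measured for 63 members, against 8.13% of all genes. Of the 40S subunit 18 of 32 genes fell, with a median of -1.35, and of the 60S subunit 28 of 50, with a median of -1.29.

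The count rests on few libraries. It was 1 without DJ1_KO_OVA_263, 77 without DJ1_KO_OVA_266 and 0 without DJ1_KO_OVA_267. Of all genes tested, 604 of 17609, 2970 of 17741 and 161 of 17723 fell in these fits, against 1459 of 17716 as reported. Leaving out WT OVA replicates 5, 6 and 9 in turn gave 1, 1 and 0 members. Of all genes, 375 of 17727, 311 of 17716 and 316 of 17737 then fell. Leaving out WT PBS replicate 1 gave 7 members, where 785 of 17745 genes fell. The members' median stayed between -1.65 and -1.12.

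**Figure D2:**
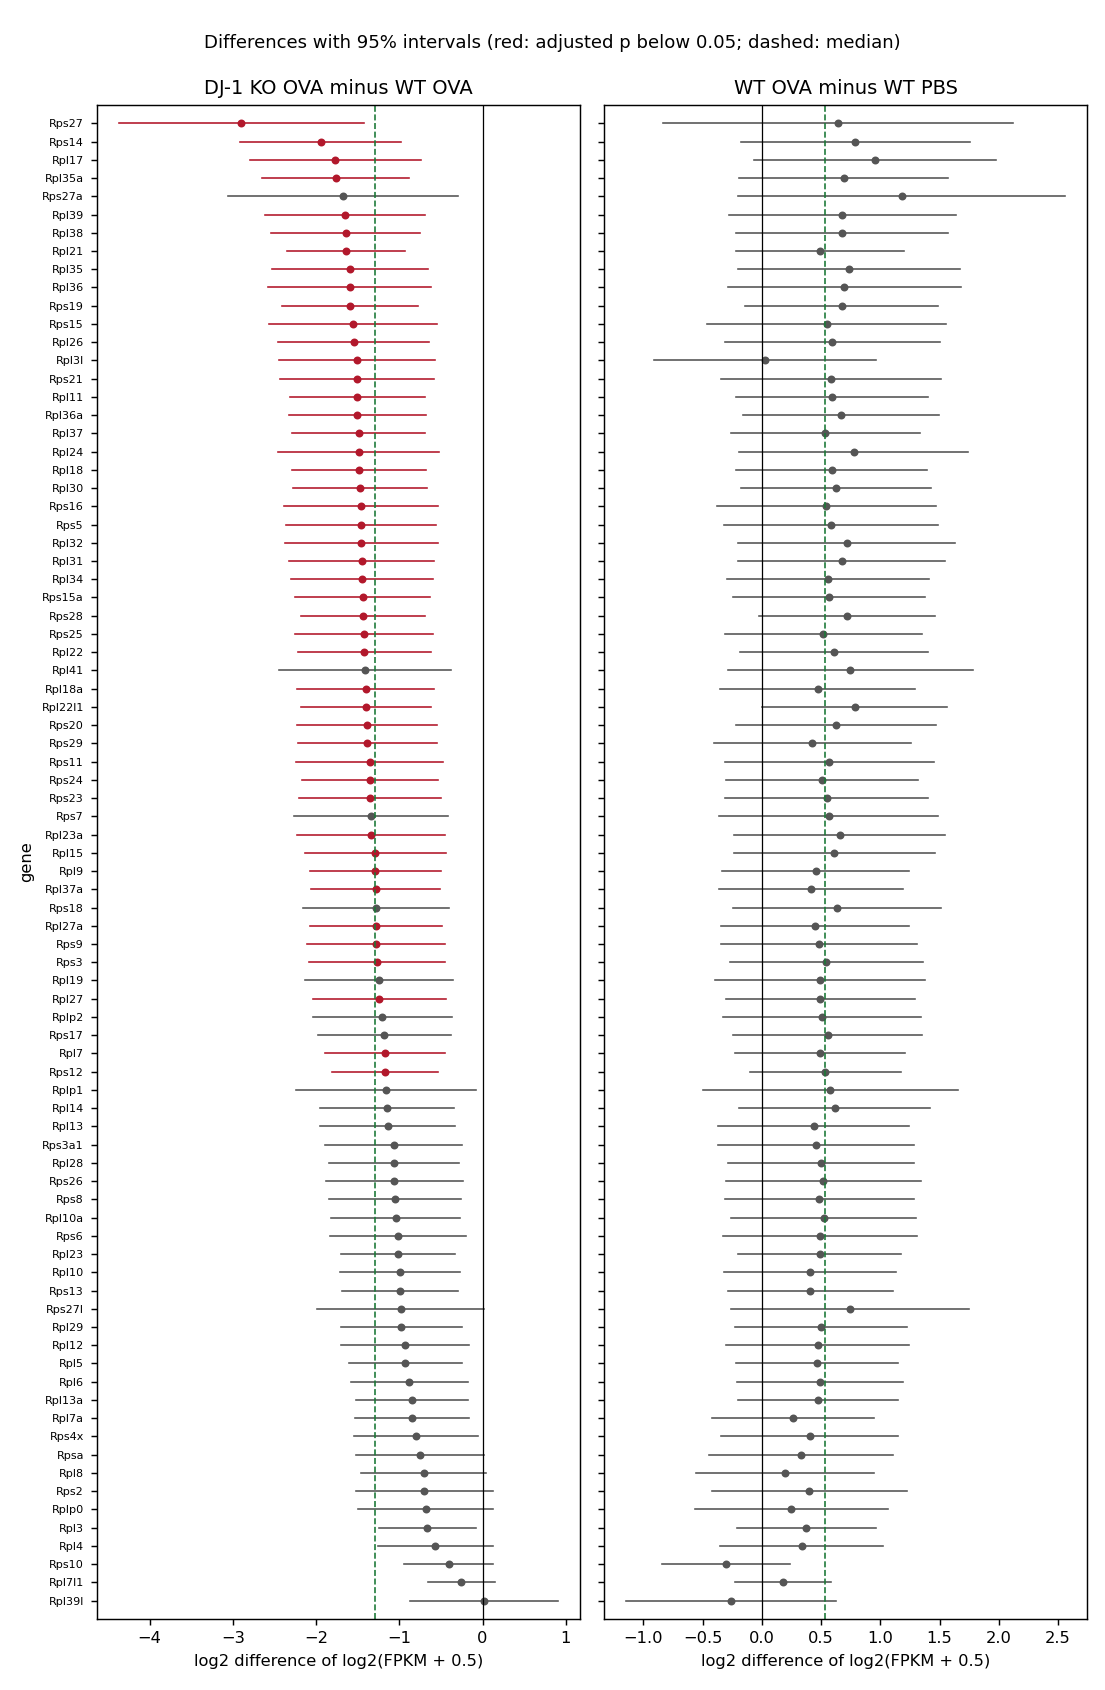
Log2 difference of each of the 82 tested genes with its 95% interval, DJ-1 KO OVA minus WT OVA on the left and WT OVA minus WT PBS on the right. Genes are ordered by the left panel, red marks an adjusted p below 0.05 and the dashed line is the median (-1.29 on the left, 0.54 on the right).

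Among the genes that fell, Rpl21, a protein of the 60S subunit, had the smallest p. It was at 30.5, 62.5 and 33.1 FPKM in libraries DJ1_KO_OVA_263, DJ1_KO_OVA_266 and DJ1_KO_OVA_267, against 123, 114 and 141 in WT OVA replicates 5, 6 and 9 and 86.8, 126 and 64.5 in WT PBS replicates 1, 2 and 3. Every knockout library was below every wild-type library. The difference between the OVA groups was -1.64 (SE 0.32, adjusted p = 0.0156, limma).

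Rps14, a 40S protein known from the deleted region of a human myelodysplastic syndrome, was at 253, 646 and 265 FPKM in the knockout, 1373, 1106 and 1641 FPKM in WT OVA and 788, 1183 and 517 FPKM in WT PBS. The OVA groups did not overlap, while DJ1_KO_OVA_266 was above WT PBS replicate 3. The difference between the OVA groups was -1.95 (SE 0.44, adjusted p = 0.0237, limma).

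Rps19, the gene most often mutated in the human red cell aplasia Diamond-Blackfan anemia, was at 100, 235 and 115 FPKM in the knockout, 407, 365 and 502 FPKM in WT OVA and 247, 386 and 193 FPKM in WT PBS. Rpl35a, mutated in the same disease, was at 57.8, 151 and 62.3 FPKM in the knockout, 267.4, 236 and 344 FPKM in WT OVA and 160, 260 and 124 FPKM in WT PBS. For each of these genes the knockout libraries were below the WT OVA libraries without overlap, and DJ1_KO_OVA_266 was above WT PBS replicate 3. The differences were -1.59 for Rps19 (SE 0.37, adjusted p = 0.0255) and -1.77 for Rpl35a (SE 0.40, adjusted p = 0.0239, limma). Of the 12 listed members known from Diamond-Blackfan anemia, 7 fell (58.3%, against 8.24% of all genes), with a median of -1.35.

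The abundant genes Rps15 and Rpl36 fell, by 1.55 (SE 0.46, adjusted p = 0.0471) and 1.60 (SE 0.44, adjusted p = 0.0412, limma) on the log2 scale. Rps15 was at 836, 1996 and 916 FPKM in the knockout libraries, 3252, 2856 and 4166 FPKM in WT OVA and 2189, 3513 and 1611 FPKM in WT PBS. Its groups under ovalbumin did not overlap. Rplp1 averaged 2851 ± 1513 FPKM in DJ-1 KO OVA and 5892 ± 950 FPKM in WT OVA (SD, n = 3 each), a difference of -1.16 that did not pass (adjusted p = 0.119, limma).

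The stalk genes as a group gave 0 of 3 calls. Rplp0, the stalk base and a common reference gene in quantitative PCR, was at 964, 1853 and 1034 FPKM in the knockout, 2310, 1660 and 1995 FPKM in WT OVA and 1706, 1954 and 1366 FPKM in WT PBS. DJ1_KO_OVA_266 was above WT OVA replicate 6, so the groups overlapped, and the difference of -0.68 (95% interval -1.5 to 0.13, adjusted p = 0.207, limma) did not pass. Rplp2 differed by -1.21 (adjusted p = 0.0557). Of the 6 listed members that are used as reference genes, 2 fell (Rpl32 and Rpl27), which is 33.3%, against 8.24% of all genes. The median of the 6 was -1.24.

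The proteins that take part in p53 surveillance gave 3 calls, all lower, among 8 genes (37.5%, against 8.24% of all genes), with a median of -1.31. Rpl11 was at 147, 322 and 166 FPKM in the knockout libraries, 551, 475 and 696 FPKM in WT OVA and 353, 546 and 278 FPKM in WT PBS. It fell by 1.51 between the OVA groups (SE 0.37, adjusted p = 0.0284, limma), without overlap. Its partner Rpl5 was at 203 ± 43.7 FPKM in the knockout and 383 ± 58.7 FPKM in WT OVA (SD, n = 3 each), a difference of -0.93 that did not pass (adjusted p = 0.0654). The other genes called were Rpl26 and Rps3. Of 9 genes of nucleolar stress and the p53 response, 0 passed (limma), with 4 at an unadjusted p below 0.05, 2 in each direction. That is 22.2% in each direction, near the 16.8% higher and 18.4% lower of all genes.

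Rps6, the substrate of the S6 kinases, was at 531, 904 and 528 FPKM in the knockout, 1233, 1103 and 1553 FPKM in WT OVA and 835, 1375 and 668 FPKM in WT PBS. The OVA groups did not overlap, and the difference of -1.02 (SE 0.37) had an adjusted p of 0.0812 (limma). Rpsa, known also as a laminin receptor, differed by -0.75 (adjusted p = 0.15), and Rpl13a, which as a free protein represses translation of inflammatory mRNAs in human macrophages, by -0.85 (adjusted p = 0.0798).

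Rps27, a zinc-finger protein of the 40S subunit, had the most negative difference of the 82 genes. It was at 134, 873 and 118 FPKM in libraries DJ1_KO_OVA_263, DJ1_KO_OVA_266 and DJ1_KO_OVA_267, against 1717, 1421 and 2343 in WT OVA replicates 5, 6 and 9 and 1072, 1661 and 843 in WT PBS replicates 1, 2 and 3. DJ1_KO_OVA_263 and DJ1_KO_OVA_267 were far below every other library, and DJ1_KO_OVA_266 was just above the lowest WT PBS library. The difference between the OVA groups was -2.90 (SE 0.67, 95% interval -4.37 to -1.42, adjusted p = 0.0246, limma), and it was -3.83 without DJ1_KO_OVA_266.

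Rps27 has a protein-coding copy, Rps27rt, on chromosome 9, and reads can be divided between the copies by how they were aligned and counted. Rps27rt was at 1214, 1038 and 1121 FPKM in the knockout, 1886, 2008 and 2938 FPKM in WT OVA and 1516, 2948 and 899 FPKM in WT PBS. The knockout libraries were close together in Rps27rt and below the WT OVA libraries, without the gap that set DJ1_KO_OVA_263 and DJ1_KO_OVA_267 apart in Rps27. Rps27 held 23.5%, 70.1% and 22.6% of the reads counted to it and its named copies in libraries DJ1_KO_OVA_263, DJ1_KO_OVA_266 and DJ1_KO_OVA_267, 71.7%, 66.4% and 69.0% in WT OVA and 66.3%, 61.1% and 72.3% in WT PBS. When the reads of the copies were added to Rps27 its difference was -1.85 (adjusted p = 0.029, limma), an alternative chosen after seeing the data.

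**Figure D3:**
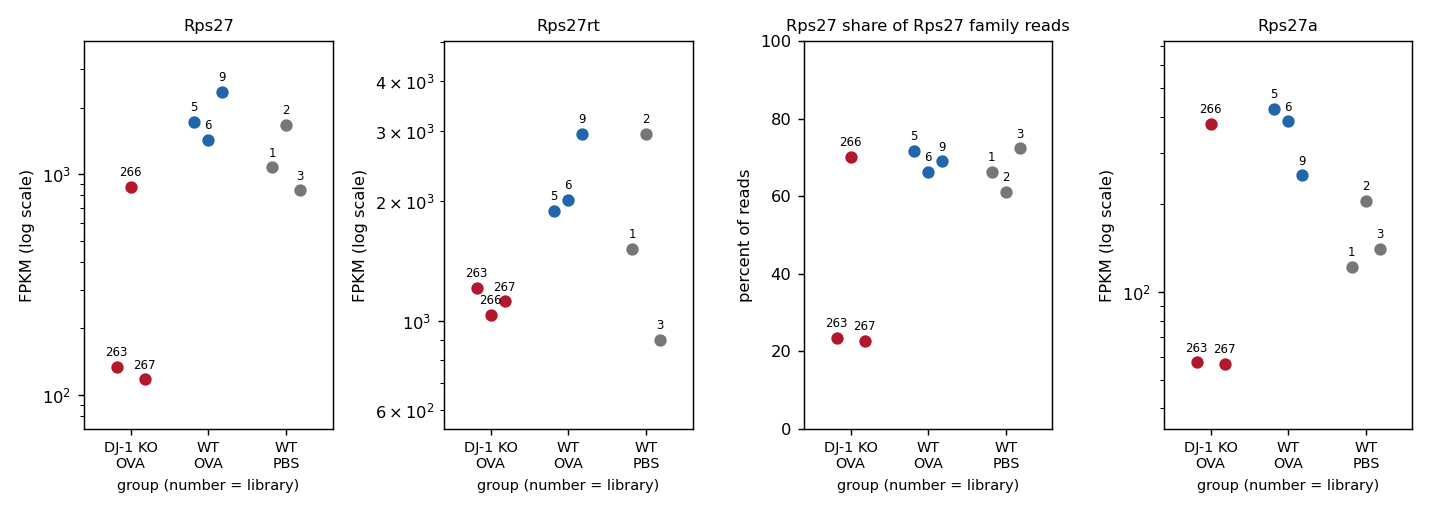
Levels of Rps27, Rps27rt and Rps27a in FPKM (log axes) and the percent of the Rps27 family's reads counted to Rps27, with 1 point per library in the 3 groups. DJ1_KO_OVA_263 and DJ1_KO_OVA_267 stand at 23.5% and 22.6% of the family's reads, while DJ1_KO_OVA_266 and the 6 wild-type libraries stand between 61.1% and 72.3%.

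Rps27a, which is made as a fusion of ubiquitin to a 40S protein, split the knockout libraries in a similar way. It was at 57.5, 378 and 56.8 FPKM in libraries DJ1_KO_OVA_263, DJ1_KO_OVA_266 and DJ1_KO_OVA_267, 427, 386 and 252 FPKM in WT OVA and 122, 205 and 141 FPKM in WT PBS. DJ1_KO_OVA_266 lay among the WT OVA libraries and above all WT PBS libraries, and DJ1_KO_OVA_263 and DJ1_KO_OVA_267 were below all 7 others. The difference of -1.68 between the OVA groups did not pass (SE 0.62, adjusted p = 0.0869, limma).

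Copies of a core member that replace it in some tissues or cells gave 2 calls, both lower, among the 5 tested (40%, against 8.24% of all genes). Rpl22l1, a copy of Rpl22 that can take its place, was at 23.0, 47.7 and 21.9 FPKM in the knockout, 78.2, 65.7 and 88.9 FPKM in WT OVA and 46.1, 65.6 and 29.2 FPKM in WT PBS. It fell by 1.40 (SE 0.35, adjusted p = 0.0315), close to the 1.42 of Rpl22 (adjusted p = 0.032, limma). Rpl3l was at 0.301, 1.75 and 0.523 FPKM in the knockout, 2.25, 2.15 and 5.35 FPKM in WT OVA and 2.51, 4.36 and 2.28 FPKM in WT PBS, with every knockout library below every wild-type library, and fell by 1.51 (SE 0.42, adjusted p = 0.042, limma). Its parent Rpl3 differed by -0.66 and did not pass (adjusted p = 0.105).

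The other copies did not pass. Rpl7l1 was at 15.6, 20.6 and 14.7 FPKM in the knockout, 19.3, 19.4 and 21.6 FPKM in WT OVA and 18.3, 18.1 and 16.6 FPKM in WT PBS, with overlap, and differed by -0.25 (95% interval -0.66 to 0.15), where Rpl7 fell by 1.17 (adjusted p = 0.0408, limma). Rpl39l was at 1.06 ± 0.599 FPKM in the knockout and 1.00 ± 0.466 FPKM in WT OVA (SD, n = 3 each) and differed by 0.02, the only positive difference, while Rpl39 fell by 1.65 (adjusted p = 0.036, limma). Rps27l, which p53 induces, differed by -0.98 (95% interval -1.99 to 0.02, adjusted p = 0.15). The differences between copies and parents were not tested.

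Pseudogenes and other copies bear on how single genes were measured. Named copies were annotated for 62 members, 309 in all (303 pseudogenes and 6 protein-coding genes). Of the copies, 122 had 0 reads and 28 were at 100 FPKM or more. They held 6.69% of the reads counted to all 83 members and these copies together. Rps10 and Rpl17, at 33.1%, were the 2 members with under 50% of their family's reads. Adding the copies' reads to each member gave 47 genes that fell in place of 46. Rps10 itself was at 0.805, 1.01 and 0.389 FPKM in the knockout, 1.11, 0.774 and 1.5 FPKM in WT OVA and 1.60, 1.35 and 1.48 FPKM in WT PBS and did not pass (difference -0.41, adjusted p = 0.252), while Rps10-ps2 fell by 1.47 (adjusted p = 0.0412, limma). The sources used here do not say if strand was used in counting, and 26 members overlap another gene. Of the 5 overlapped on the same strand the partner had a mean of 0 FPKM for 4 and 0.428 FPKM for Rpl19. The 4 were Rpl13, Rpl13a, Rpl24 and Rps10, with means of 723, 20.3, 19.5 and 1.11 FPKM over the 9 libraries. A partner at 0 does not show that the member was counted in full, because shared reads may have been left out of both genes. Whether the overlap lowers the values of these members was not tested.

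Named pseudogenes of the members were among the genes whose pattern over the 9 libraries was most like the mean of the members. By Pearson r among 12953 other genes with a mean of at least 1 FPKM, the 5 most alike were Rps10-ps2 (0.999), Gm2000 (0.999), Gm9493 (0.998), Gm5854 (0.998) and Rpl36-ps12 (0.998). Eif3k, Eif3h and Eef1b2, factors of translation initiation and elongation, were the next annotated protein-coding genes, at 0.997, 0.997 and 0.996, and were chosen after their values were seen.

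Subunit genes whose names lie outside the rule were measured too. Fau, which encodes a 40S protein fused to a ubiquitin-like protein, was at 805 ± 451 FPKM in the knockout and 2513 ± 559 FPKM in WT OVA (SD, n = 3 each) and fell by 1.76 (adjusted p = 0.0314, limma). Rack1, a scaffold on the 40S head, differed by -1.13 and did not pass (adjusted p = 0.0566, limma). Of the 6 tested snoRNA host genes, a class in which terminal oligopyrimidine tracts are common, 4 fell (66.7%, against 8.24% of all genes). The median of the 6 was -1.19. The genes that fell included Snhg8, by 1.61 (adjusted p = 0.0146), and Gas5, by 1.19 (adjusted p = 0.0245, limma). Among 18 other mRNAs with such tracts 4 fell (Naca, Eif3e, Eif3h and Btf3), which is 22.2%, with a median of -0.66 for the 18. Eef1a1, the main elongation factor, differed by -0.59 and did not pass (adjusted p = 0.294, limma).

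Lists of genes that make ribosomes or control their synthesis had few calls. Of 54 ribosome biogenesis factors 5 rose (9.26%, against 5.93% of all genes) and 3 fell (5.56%, against 8.24%), shares near those of all genes, with a median of 0.13. Rrp12, Rrs1, Utp20, Nolc1 and Ddx21 rose, by 0.74 to 1.05, and Polr1c, Nop10 and Sbds fell. Of 7 chaperones of ribosomal proteins 1 rose (14.3%, against 5.93% of all genes) and 0 fell. It was Heatr3, an importer of Rpl5 in human cells, which rose by 0.71 (adjusted p = 0.0275, limma). Of 17 genes of mTORC1 and Myc control 2 rose and 2 fell (11.8% each, against 5.93% and 8.24% of all genes), with a median of 0.42. At an unadjusted p below 0.05, 7 were higher (41.2%, against 16.8% of all genes) and 3 lower (17.6%, against 18.4%, limma). Larp1, which binds the tract, rose by 1.21 (adjusted p = 0.035) and Myc by 1.04 (adjusted p = 0.0392, limma). Maf1 and Eif4ebp1, repressors of transcription by RNA polymerase III and of cap-dependent translation, fell. Translation initiation factors gave 3 genes that rose (Eif4g1, Eif3c and Eif3a) and 2 that fell (Eif3k and Eif4a2) of 29 (10.3% and 6.90%, near the shares of all genes). Ribosome quality control gave 1 that rose (Vcp) of 10 (10%, against 5.93% of all genes).

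Other large complexes were compared for scale. Of 76 mitochondrial ribosomal proteins 7 fell (9.21%, near the 8.24% of all genes), with a median of -0.40. Of 87 nuclear subunits of oxidative phosphorylation 18 fell (20.7%), with a median of -0.79, and of 38 proteasome subunits 1 rose (2.63%, against 5.93% of all genes) and 0 fell, with a median of -0.25. Of 13 proteins encoded by the mitochondrial genome 9 fell, with a median of -1.45. The differences between these lists and the ribosomal proteins were not tested.

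**Figure D4:**
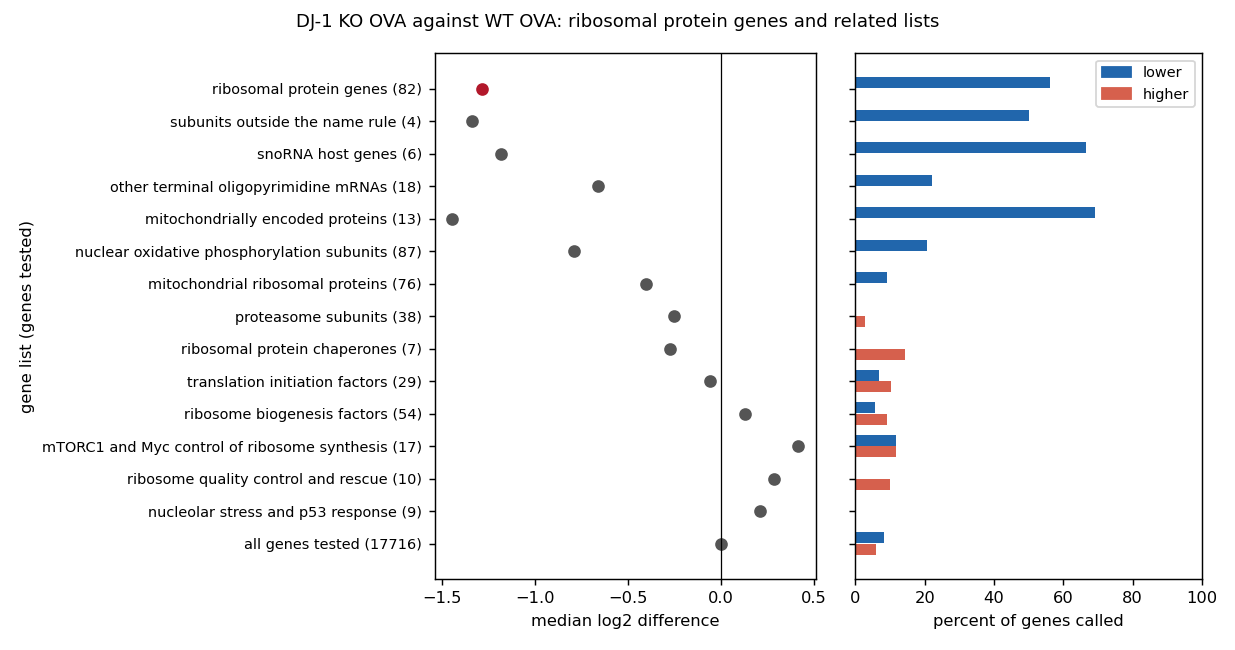
Median log2 difference, DJ-1 KO OVA minus WT OVA, of the ribosomal protein genes and related lists (left) and the percent of each list's tested genes called lower or higher (right). Ribosomal proteins (-1.29), subunits outside the name rule, snoRNA host genes (-1.19) and mitochondrially encoded proteins (-1.45) have the most negative medians, and biogenesis factors (0.13) and all genes (0.00) lie near 0.

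Several properties of the libraries moved with these genes. Across all 17716 genes the difference between the OVA groups rose with gene length (Pearson r = 0.32 and Spearman rho = 0.43 across genes, which are not independent), and ribosomal protein genes are short, with a median length of 1770 bases against 3436 for genes tested. Members of up to 1000 bases had a median of -1.37, against -0.39 for other genes of that length, and members of 1000 to 2000 bases -1.37, against -0.34. For 2000 to 4000 bases the medians were -1.19 for members and -0.09 for other genes, and for over 4000 bases -1.41 for the 6 members and 0.25 for other genes. Removing the length trend left 34 members that fell, with a median of -1.06, where 1104 of all 17716 genes fell. The FPKM values of a library summed to 308542, 472548 and 383287 in libraries DJ1_KO_OVA_263, DJ1_KO_OVA_266 and DJ1_KO_OVA_267. They summed to 591691, 570483 and 602047 in WT OVA replicates 5, 6 and 9. In WT PBS replicates 1, 2 and 3 they summed to 489318, 551459 and 392285. Within each group this is also the order of the ribosomal protein sum. Scaled to equal sums, 34 members fell with a median of -0.67, where 596 of all 17893 genes fell. That scaling placed the median of all genes at 0.46, and relative to it the members' median was -1.13.

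Cell type markers also differed. The summed level of 12 neutrophil markers, none at 0, was 1487, 4514 and 1545 FPKM in libraries DJ1_KO_OVA_263, DJ1_KO_OVA_266 and DJ1_KO_OVA_267. It was 15363, 13338 and 19619 FPKM in WT OVA and 16523, 25023 and 8849 FPKM in WT PBS. Within each group this put the libraries in the same order as the ribosomal protein sum. The FPKM sum of all genes, given above, put them in that order too. Of the neutrophil markers 9 of 12 fell between the OVA groups, where 8.24% of all genes fell and 5.93% rose. So did 5 of 10 B cell markers (112 to 262 FPKM in the knockout, 309 to 409 in WT OVA, 350 to 410 in WT PBS) and 2 of 9 alveolar type 2 markers (6626 to 14167, 32960 to 42037 and 25523 to 42443 FPKM). Of 10 markers of cycling cells 8 rose (64.5 to 156 FPKM in the knockout, 17.7 to 36.6 in WT OVA, 26.9 to 29.6 in WT PBS), as did 5 of 12 T cell markers and 5 of 8 fibroblast markers. These lists are part of those measured and were picked with their values known. Among the others, 3 of 7 alveolar type 1, 1 of 7 club, 1 of 9 endothelial and 1 of 6 plasma cell markers fell. Of 9 alveolar macrophage markers 1 rose and 2 fell. Their sum was 10886 to 33864 FPKM in the knockout, 3343 to 14029 in WT OVA and 2227 to 3465 in WT PBS. Of 10 markers of monocyte-derived macrophages 2 rose and 1 fell. Of 7 goblet markers 2 rose, and 0 of 6 erythroid markers passed. None of these markers was at 0 in all libraries. Their part in the result was not tested.

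The comparison of WT OVA with WT PBS asks how the wild-type lung responds to challenge. In it 0 of 82 ribosomal protein genes passed (limma), where 0.00564% of all genes were higher and 0% lower; 1 gene, Rpl22l1, was higher at an unadjusted p below 0.05 (3.65% of all genes) and 0 were lower at that level (2.82%), and limma-voom on the recovered reads also gave 0 calls, with 2 at an unadjusted p below 0.05. The differences were positive in 80 of 82 genes (50.5% of all genes) and negative in 2 (49.3%), with a median of 0.54 against 0.00 for all genes. The WT OVA libraries lay above the WT PBS libraries without overlap in 4 genes (Rpl22l1, Rps28, Rps27a and Rpl7l1), against 7.25% of all genes, and below them in 0, against 7.52%. For Rpl22l1 the difference was 0.78 (95% interval 0.00 to 1.56). The 95% interval spanned 0 for the other 81 genes.

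The comparison of DJ-1 KO OVA with WT PBS shares its libraries with the 2 others and is given beside them. It also gave 0 calls (limma), where 4.47% of all genes were lower and 4.07% higher. At an unadjusted p below 0.05, 26 members were lower, against 13.6% of all genes. By limma-voom 3 members were called lower, where 894 of all 17716 genes were. All 82 differences were negative, against 50% of all genes, with a median of -0.73, and 3 genes did not overlap (Rpl21, Rpl3l and Rps10), against 12.9% of all genes. At least 2-fold lower values were measured for 6 members, against 5.08% of all genes. Rpl21 differed by -1.15 (SE 0.32, adjusted p = 0.0511) and Rps27 by -2.26 (SE 0.67, adjusted p = 0.0635, limma). Without DJ1_KO_OVA_266, 41 of the 82 genes fell, where 1994 of all 17741 genes fell. In the 2 other comparisons, DJ-1 KO OVA minus WT OVA and WT OVA minus WT PBS, Rpl21 differed by -1.64 and 0.49 and Rps27 by -2.90 and 0.64.

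**Figure D5:**
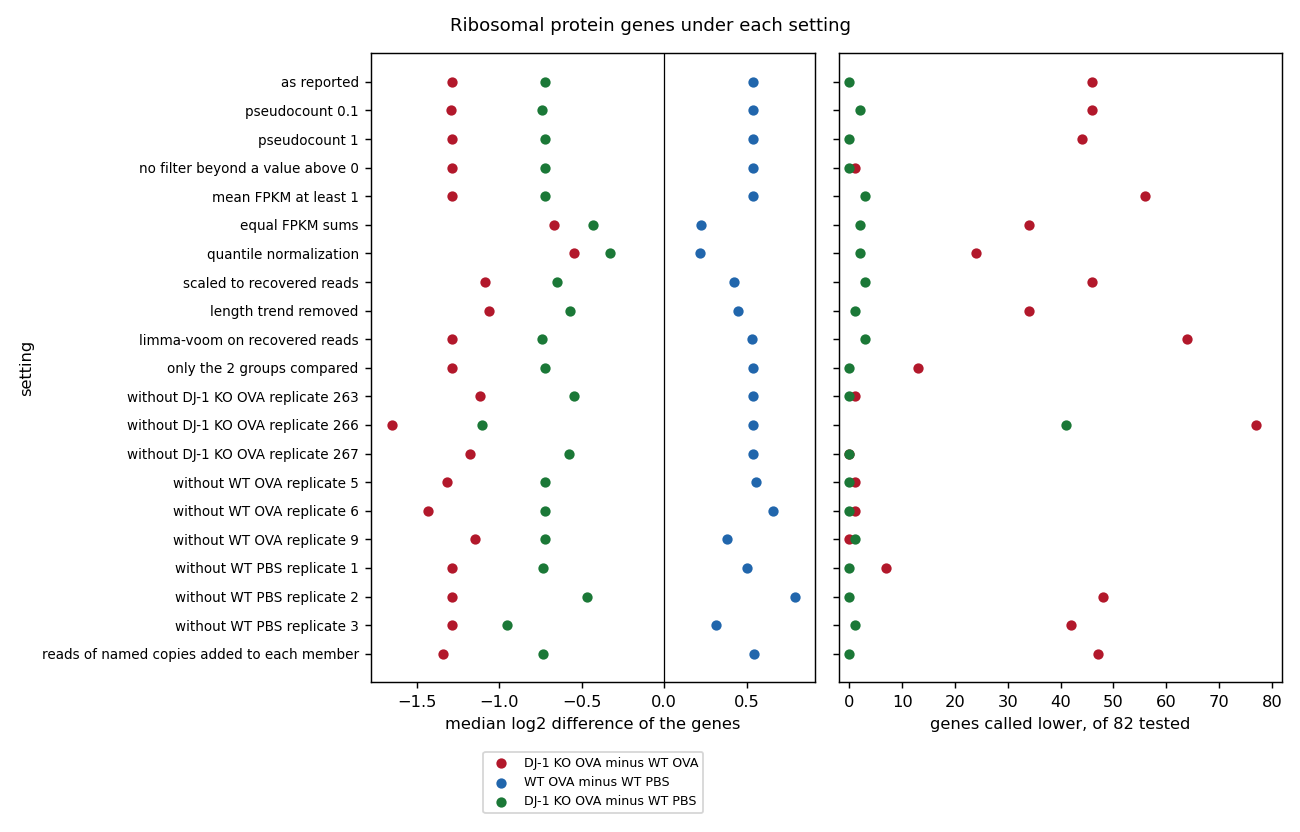
Median log2 difference of the 82 genes under each setting for the 3 comparisons (left) and the number of genes called lower in the 2 comparisons of DJ-1 KO OVA (right). The medians keep their sign in every setting, -1.65 to -0.55 against WT OVA and 0.22 to 0.79 for WT OVA minus WT PBS, while the number called lower against WT OVA runs between 0 and 77.

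The calls were set beside the sequences at the annotated starts. The 30 tested genes with a C or T run of at least 6 bases had 14 that fell and a median of -1.24, and the 32 with a shorter run had 19 that fell and a median of -1.32, with no test. Rps27 and Rps6 both carry such a run and differed by -2.90 and -1.02, and Rps19 and Rpl35a, without one, by -1.59 and -1.77. Over the 82 genes the difference between the OVA groups had a Pearson r of -0.33 and a Spearman rho of -0.05 with the log2 mean level, and of 0.11 and 0.14 with log2 gene length, given as a description over genes that share libraries.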

How the data were processed

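RNA of lung cells was sequenced in 9 libraries in 3 groups of 3, grouped by the sample labels. Per the submitters' processing notes, Trimmomatic, HISAT2 and HTSeq were used with the genome build GRCm38.p6; the sources used here do not give their roles or versions, or say if strand was used in counting. The deposited values are FPKM per gene, with gene names, positions and lengths, per the file headers. FPKM multiplied by gene length gave whole multiples of a single step for 100% of values above 0, within 0.01 reads, so reads were recovered; the sizes used in the authors' scaling came to 0.890 to 1.21 of the recovered totals. Positions equal those of GENCODE release M 21 for all 83 members.

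Values were analysed as log2(FPKM + 0.5) for 17716 genes with a mean of at least 0.2 FPKM, with limma-trend (limma 3.58.1 under R 4.3.3), fitting a mean per group and 6 residual degrees of freedom. Calls were made at a Benjamini-Hochberg adjusted p below 0.05 over all genes tested. Differences are on the log2(FPKM + 0.5) scale, which understates changes of low genes, and means are of FPKM. The test was checked on simulated reads. A member's copies were genes named after it (a -ps, rt or similar suffix), so unnamed copies are missed.

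The members and gene lists were chosen with earlier results of these data known. Named members were the 5 with the smallest p among those called in a direction, the 3 highest and 3 lowest in level, fixed key genes and paralog pairs, up to 3 members of each related list with the smallest p, and the 5 most alike genes; other genes named in a count of calls were chosen after their values were seen. Alternatives changed the pseudocount, the filter, the scaling, the tool, the groups in the fit and the libraries, and removed the trend of each library's values with gene length.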

Additional observations from a re-analysis of the deposited data

How the results depend on the processing

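No paired analysis was possible because the groups share no replicate numbers in the labels. In the knockout against WT OVA the reported 46 members called lower became 1 with no filter on level, where 371 of all 30389 genes were lower. The count was 24 with quantile normalization (1312 of 17716 genes) and 13 with only these 2 groups in the fit (850 of 17765 genes). It ran from 0 (without DJ1_KO_OVA_267 or WT OVA replicate 9) to 77 (without DJ1_KO_OVA_266) when single libraries were left out. The count over all genes then ran from 161 without DJ1_KO_OVA_267 to 2970 without DJ1_KO_OVA_266. Under the other settings 34 to 64 members were called lower, and the causes were not tested. The median of -1.29 was -0.67 with equal FPKM sums, -0.55 with quantile normalization and -1.65 to -1.12 with single libraries left out. No setting called a gene higher. Between the knockout and WT PBS the reported 0 became 2 with a pseudocount of 0.1, with equal FPKM sums and with quantile normalization, 3 with a mean of at least 1 FPKM, with scaling to the recovered reads and with limma-voom, and 1 with the length trend removed. Over all genes tested, 431 (equal FPKM sums) to 899 (length trend removed) were lower in these settings, against 792 as reported. Leaving out single libraries gave 0 to 41, highest without DJ1_KO_OVA_266 and 1 without WT OVA replicate 9 or WT PBS replicate 3. For WT OVA against WT PBS it was 0 in every setting run, with a median of 0.22 with equal FPKM sums, 0.22 with quantile normalization and 0.31 to 0.79 with single libraries left out.

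Some named genes changed sign or reached 0, none of them called in the comparison concerned. Against WT OVA in the knockout these were Rpl7l1 (0.35 with equal sums), Rplp0 (0.0776), Rpsa (0.0833), Rpl3 (0.10) and Rps4x (0.0226 with quantile normalization), and Rpl39l (-0.0756 with limma-voom and -0.27 to 0.39 with libraries left out). Against WT PBS in the knockout they were Rpl3 (0.0182), Rpl7l1 (0.23) and Rps27l (0.0651) with equal sums, Rpsa (0.0601), Rpl3 (0.14), Rps27l (0.002) and Rps4x (0.0838) with quantile normalization, and Rpl7l1 (0.0139) with scaling to the recovered reads. In WT OVA against WT PBS they were Rplp0 (-0.0639), Rpl3l (-0.24) and Rpl7l1 (-0.12) with equal sums, Rplp0 (-0.0834), Rplp1 (0), Rpsa (-0.0231) and Rps15 (-0.0164) with quantile normalization, Rpl3l with scaling to the recovered reads (-0.0732) and with the length trend removed (-0.10), and Rps10 (0.59) when the reads of its named copies were added, a setting chosen after seeing the data.

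With single libraries left out, DJ-1 KO OVA minus WT PBS ran from -0.47 to 0.13 for Rpl39l, -0.72 to 0.26 for Rps27l and -0.21 to 0.0209 for Rpl7l1, and WT OVA minus WT PBS from -0.49 to 0.10 for Rpl39l and -0.35 to 0.27 for Rpl3l. Over the named genes and the alternatives, 439 values against WT OVA in the knockout kept their direction and their side of the threshold, 95 lost the call, 17 gained it and 9 changed sign or reached 0.

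With 3 libraries in each group and the knockout libraries far apart, calls rest on single libraries, and a gene that did not pass is not shown to be alike in both groups. The sources used here do not say how reads shared by near-identical copies or by overlapping genes on either strand were counted. Knockout was not analysed here without challenge, so its effect and an effect on the response cannot be told apart. Whether a library is 1 animal is not labelled.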
